A study of Oryza sativa with 3 samples.

Results

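Wide stretches of the rice genome in which no nucleosome was called, but in which sequence reads could still be placed, were examined here. They were found between neighbouring nucleosome calls whose centres lay 422 to 1121 bp apart, which leaves a gap of 301 to 1000 bp without a call. A gap was kept as a member where at least 3 whole reads of a separate library, at distinct positions or strands, fell inside it. By this rule 32047 of 47045 wide gaps were members, out of 3456843 neighbouring pairs of calls in all. The members were chosen by the measured distance between calls and by the number of reads inside, so the width, the read number and the low read density given below are a description of that choice and not a result.

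The samples were leaf tissue of rice cultivar Nipponbare, harvested after 2 weeks of growth, and every library was made from nuclei treated with micrococcal nuclease (MNase). The calls came from replicate 2, which was sequenced as read pairs. The reads came from replicate 1, which was sequenced as single reads of 36 bp in 2 technical replicates that were deposited together. No control or second condition was sequenced, and with 1 biological replicate in each form no test over samples was possible, so errors are the spread over the 12 chromosomes of 1 library. Leaf holds several cell types, and a nucleosome held firmly in few cells cannot be told apart from one held loosely in many. Over the genome the single-end library held 26516807 reads, or 71.3 reads per kb, which ran between 67.6 on chromosome 12 and 77.4 on chromosome 3.

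DNA in the nucleus is wound around octamers of histones to form nucleosomes, which are joined by short linkers. MNase cuts the linkers first and spares the DNA on the octamer, and each read of such a fragment starts at one border of the spared stretch. Regions that hold no stable nucleosome are known from promoters and other regulatory DNA, where bound proteins or stiff sequence keep the octamer away, and nucleosomes beside such regions often form regular arrays that lose their order with distance. A list of calls can also lack a nucleosome where the octamer lies at varying places among cells, or where reads cannot be placed uniquely.

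Of the 47045 wide gaps, 68.1% were members (exact binomial 95% interval 67.7 to 68.5%, counting error only). The share ran between 64.3% on chromosome 4 and 74.4% on chromosome 3. The other 14998, called read-poor gaps here, included 6585 without any whole read. At the edge of the rule, 3707 members held exactly 3 distinct reads and 3912 read-poor gaps held exactly 2. The median width was 429 bp in those members and 440 bp in those read-poor gaps. The kb on each side held 51.5 5' ends per kb beside those members and 45.9 beside those read-poor gaps. At the other end 24906 members held at least 5 distinct reads, 12014 at least 10 and 1984 at least 20, and the highest number was 58.

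The place of the reads inside the gaps is given as a description, since the rule chose members by such reads and read-poor gaps by their lack. 5' ends fell on both sides of the midpoint in 29958 members (93.5%), against 26.7% of read-poor gaps. This counts every 5' end in the gap, also those of reads that cross its edge into the call. In members, ends of reads that ran away from the gap stood at 54.7 per kb in its last 20 bp. At 140 to 160 bp inside they stood at 9.35 per kb. The longest stretch without a read covering it had a median of 144 bp in members (quartiles 88 and 225 bp) and of 379 bp in read-poor gaps. It took a median of 30.3% of the width in members and 89.1% in read-poor gaps. Forward and reverse reads inside members were about equal in number, at 162497 and 161669. Whether the uncovered stretches can hold uniquely placed reads was not tested.

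Members were mostly narrow within the allowed range. The median width was 462 bp (quartiles 375 and 609 bp), against 448 bp in read-poor gaps, and the median of each chromosome lay between 455 bp on chromosome 1 and 468 bp on chromosome 6. The class of 301 to 400 bp held 10684 members, that of 401 to 500 bp held 7985 and that of 501 to 600 bp held 5008. Each wider class held fewer, down to 991 at 901 to 1000 bp. The share of wide gaps that were members was 66.1% at 301 to 400 bp, 61.5% at 701 to 800 bp and 75.4% at 801 to 900 bp. In all, members covered 16.3 Mb, or 4.38% of the 372 Mb spanned by the 12 chromosomes.

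**Figure D1:**
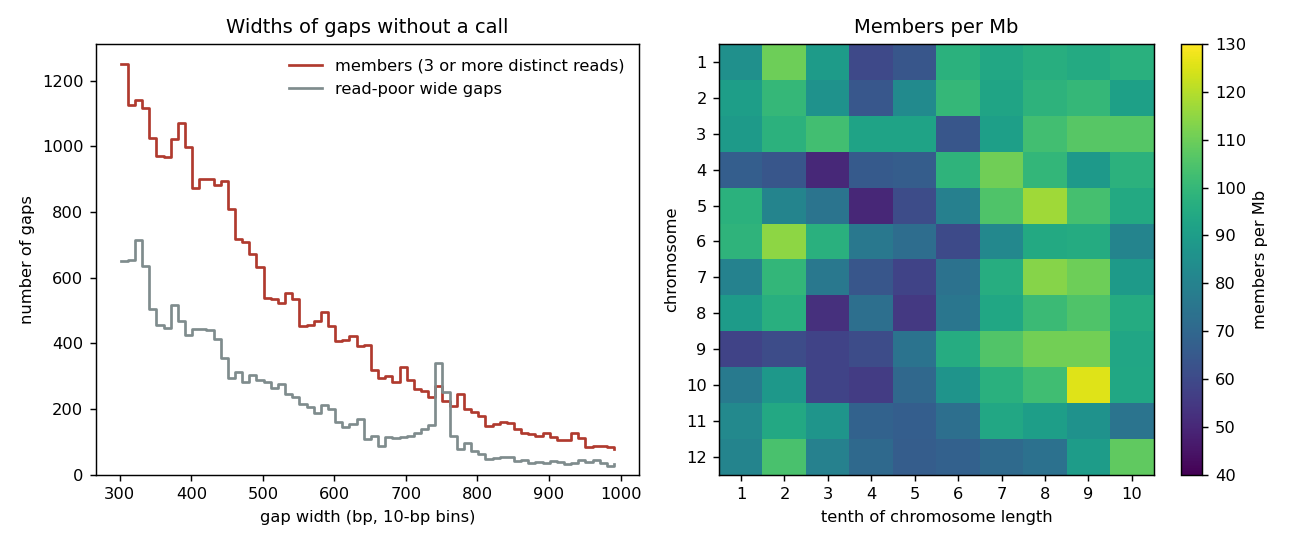
Left, the number of gaps in bins of 10 bp of width, for members and for read-poor wide gaps. Right, members per Mb in 10 equal segments of each of the 12 chromosomes, numbered from the start of the sequence. Members outnumber read-poor gaps at nearly every width, except near 750 bp, and were fewest per Mb in the middle segments of many chromosomes.

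Members were found on every chromosome at similar density. There were 86.1 members per Mb over the genome, with a mean over chromosomes of 85.7 ± 4.10 (SD, n = 12 chromosomes of 1 library), lowest on chromosome 4 (80.8) and highest on chromosome 3 (94.5). Along the chromosomes the density was less even. Each chromosome was divided into 10 segments of equal length. Summed over the 12 chromosomes, segment 4 held 67.1 members per Mb and segment 9 held 100 per Mb. In segment 4, 56.3% of the wide gaps were members, against 73.3% in segment 9. The single segment with fewest was segment 4 of chromosome 5, with 149 members of 425 wide gaps and 49.9 per Mb, and that with most was segment 9 of chromosome 10, with 287 of 354 and 125 per Mb. Read depth moved with these numbers, since that segment of chromosome 5 held 47.8 reads per kb and that of chromosome 10 held 71.5. Its part in the difference was not tested. On chromosome 4 there were 1105 members before the midpoint and 1744 after it, and the share of wide gaps that were members was 53.8% before it and 73.3% after it. No gene, promoter or centromere could be set beside these places, because no annotation of the genome build of the reads was used here.

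The spacing of members along the genome is given as a description, with no comparison beside it. The median distance between neighbouring members was 6851 bp, 64.1% of members lay within 5 kb of another and 85.3% within 10 kb. A single call stood between 2 members in 1329 places. In all, 2602 members belonged to runs that shared a call, and the longest run held 4 members.

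Read density inside the members was low by construction but was not zero. Members held 19.9 reads per kb, or 18.1 when reads at one position and strand were counted once, against 71.3 and 60.9 over the genome and 1.75 and 1.65 in read-poor gaps. Counted by 5' ends, the density was 26.7 per kb inside members and 64.2 per kb in the kb on each side. Read-poor gaps held 4.24 per kb inside and 34.1 beside them. The ends inside include those of reads that cross the edge of the gap. The inside fell below the sides in 29218 members (91.2%). The same was true of 50.5% of tiles of 500 bp over the genome that held at least 3 distinct reads, and nothing is read from the difference because the rule chose gaps between calls. Only 252 members (0.786%) reached the density of the genome. Over chromosomes the density averaged 19.8 ± 0.682 reads per kb (SD, n = 12), between 18.3 on chromosome 12 and 21.1 on chromosome 3, which were also the chromosomes with the lowest and highest density over the genome.

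Reads that repeated a position and strand made up 9.32% of the reads inside members, against 14.5% over the genome, where more reads fell on each base. Density fell with width, at 24.2 reads per kb in members of 301 to 400 bp and 14.8 in those of 901 to 1000 bp. Across the 32047 members, Spearman's rho was -0.25 between width and reads per kb and 0.33 between the density inside and beside the gap. Both are descriptions of sites that share 1 library and its depth. The rule set the same minimum of distinct reads at every width, so it asked for a higher density in narrow members. How much of the fall of density with width comes from this minimum was not tested.

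The distances between forward and reverse reads inside the members were not used by the rule, and they were most frequent near the length of nucleosomal DNA. The paper states that DNA of single nucleosomes was cut from a gel for the libraries, so fragments near this length were selected beforehand. The length alone therefore cannot show a nucleosome inside the gaps. A forward 5' end and a reverse 5' end downstream of it were taken as a pair, and pairs were counted per place available at each length, relative to the level at 200 to 290 bp. The most frequent length was 148 bp in members, 148 bp in windows of equal width beside them and 148 bp over the genome. Pairs of 144 to 152 bp stood at 4.03 times the level at 200 to 290 bp inside members, against 1.90 in the windows beside them and 1.55 over the genome. The size of the ratio depended on the lengths compared, and against 170 to 250 bp it was 2.59 inside members, 1.68 in the windows beside them and 1.43 over the genome. With reads at one position counted once the ratios were 3.22 inside members and 1.38 over the genome. The ratio of members was above that of the genome on 12 of 12 chromosomes, with a mean of 4.02 ± 0.245 in members (3.57 on chromosome 12 to 4.43 on chromosome 6), against 1.55 ± 0.0173 over the genome (SD, n = 12). The single most frequent length of members on each chromosome lay between 147 and 157 bp.

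**Figure D2:**
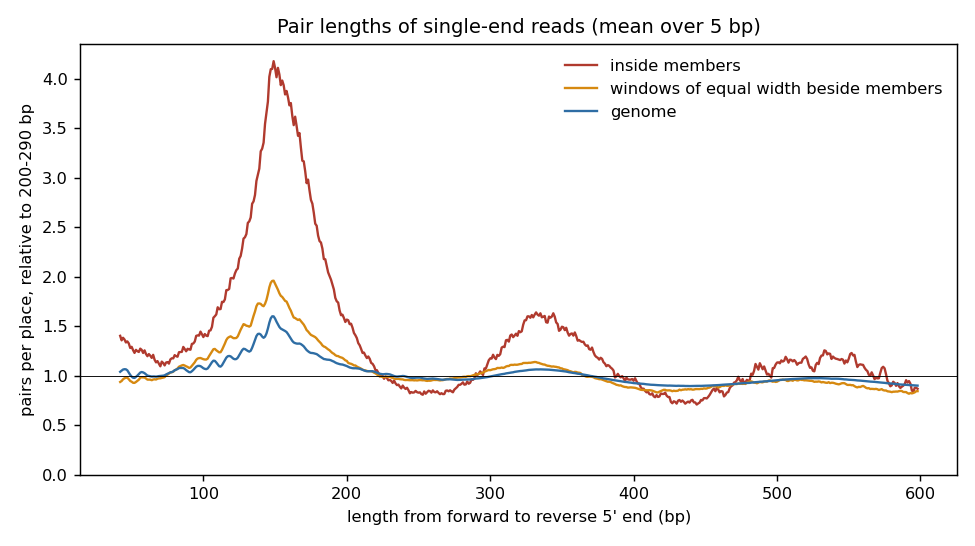
Pairs of a forward and a reverse 5' end by their length in bp, counted per available place and divided by the level at 200 to 290 bp, inside members, in windows of equal width beside them and over the genome. All 3 curves have their highest point near 148 bp, and the curve of members stands above the others there and at its later maxima near 335 and 537 bp.

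Longer pairs inside members had further maxima. After smoothing over 11 bp a second maximum stood at 335 bp in members, at 1.64 times the level at 200 to 290 bp, and the third at 537 bp, at 1.23 times. Minima stood between them at 250 bp (0.834) and 433 bp (0.732). Over the genome the second maximum was also at 335 bp but reached 1.06 times, and in the windows beside members it was at 329 bp and reached 1.14 times. In an array, the ends of neighbouring nucleosomes would give such pairs, from the start of one protected stretch to the end of the next. The pairs are made of separate reads and pooled over members. Whether both ends came from one array was not tested.

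At equal read numbers the ratio was higher in members than in tiles of 500 bp taken over the genome. With exactly 3 distinct reads it was 3.19 in members, from 115 pairs, and 1.73 in tiles. With 6 to 9 distinct reads it was 3.92 in members and 2.12 in tiles, and with 10 to 19 it was 4.34 in members and 2.04 in tiles. By width the ratio of members lay between 3.44 at 701 to 800 bp and 4.28 at 401 to 500 bp. Most single members nevertheless held no such pair. At least 1 pair within 4 bp of 148 bp was found in 9902 members (30.9%), against 78% of tiles of 500 bp, at least 2 in 5799 and at least 5 in 1921, of 34259 pairs in all. These shares were not matched by read number. At least 20 distinct reads fell in 474546 of 678637 tiles, against 1984 of 32047 members.

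The members with most pairs show what such a place looks like. Coordinates are those of TIGR release 5. The member with the highest number, at chr2:30302961-30303361, was 401 bp wide and held 58 reads, of which 35 were distinct. They made 98 pairs within 4 bp of 148 bp, or 24 with repeated reads counted once. Read centres, taken 73 bp inside each 5' end, gathered at 2 places, 103 and 297 bp from its left edge. The scores of its edge calls were 0.308 on the left and 0.668 on the right, and it held 144.6 reads per kb, against 47.5 5' ends per kb in the kb on each side.

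The member at chr11:3381268-3381708 (441 bp, 52 reads, 40 distinct) had 72 pairs, or 29 counted once. Its centres gathered mainly 307 bp from its left edge, at 968 per kb, with a lower maximum of 161 per kb at 106 bp. The other 3 of these members were narrower and had 1 main place each. At chr5:2340671-2341029 (359 bp, 29 reads) the centres gathered 231 bp from the left edge. There 4 forward reads began at one base and 7 reverse reads at another, 148 bp apart. At chr8:19586600-19586976 (377 bp, 26 reads) the place was 125 bp from the left edge, with 7 forward and 5 reverse reads at bases 145 bp apart. At chr8:27554716-27555087 (372 bp, 32 reads) it was 98 bp from the left edge, with 8 forward and 2 reverse reads at bases 145 bp apart. Repeated reads weighed heavily in these 3, whose pairs numbered 79, 78 and 77 with all reads and 10, 12 and 15 with repeats counted once. These 5 were chosen for such pairs, so they illustrate the rule and stand for no other members.

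**Figure D3:**
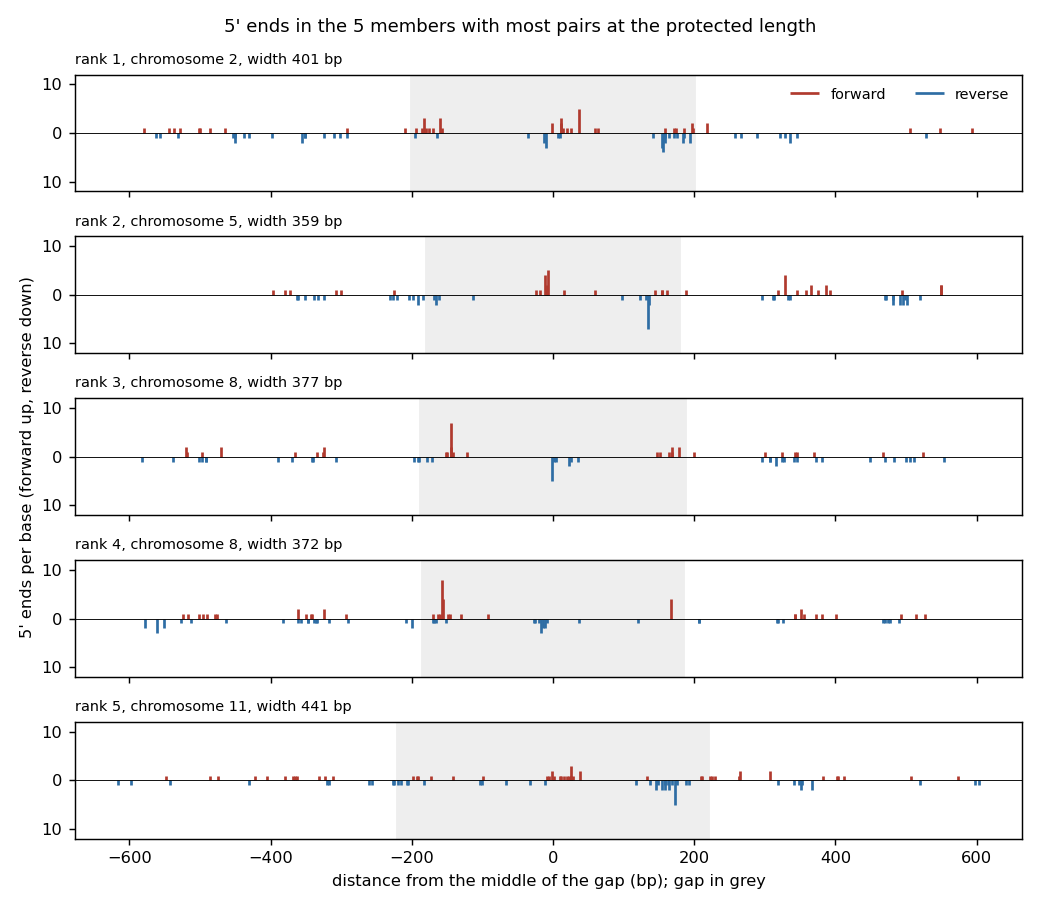
The number of 5' ends at each base, forward reads upward and reverse reads downward, across the 5 members with most pairs at the protected length, against the distance in bp from the middle of the gap (grey). Stacks of forward ends inside the gap face stacks of reverse ends about 148 bp further right.

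The members with most distinct reads were wide, and their density was near that of the genome. The highest, at chr11:10977395-10978338 (944 bp), held 70 reads, 58 of them distinct, or 74.2 reads per kb, with 28 pairs at the protected length. Its strongest gatherings of centres lay 80, 464 and 847 bp from the left edge. The others were at chr2:22093431-22094424 (994 bp, 55 reads), chr2:13529055-13529831 (777 bp, 53 reads), chr11:22256865-22257759 (895 bp, 51 reads) and chr7:8059286-8060151 (866 bp, 52 reads). Their densities lay between 55.3 and 68.2 reads per kb, and each had 9 to 11 pairs.

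The 5 widest members were each 1000 bp wide and differed much more. They held 22 reads at chr12:23817478-23818477, 18 at chr1:9509808-9510807, 17 at chr5:24691440-24692439, 8 at chr2:595115-596114 and 3 at chr5:25657584-25658583. In the last of these all 3 reads were reverse reads and 819 bp had no read, so that this gap met the rule with most of its length bare.

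In the mean profile over all members, the centres of reads inside the gap had a maximum at a set distance from the edge. The density of centres had a minimum of 17.8 per kb at 65 bp inside the edge and a maximum of 27.0 per kb at 109 bp inside it. Around all calls a maximum of 87.6 per kb stood at the same 109 bp, so this distance was not particular to members. On the 12 chromosomes the maximum lay between 101 and 114 bp inside the edge, with a mean level of 27.2 ± 1.08 per kb (SD, n = 12), and the minimum nearer the edge had a mean level of 17.5 ± 0.672 per kb. The calls at the edges had their own maximum at 112 centres per kb, so the density at the first place inside was well under that of a call beside it.

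The number of maxima in the folded mean profile grew with the width of the gap. Members were divided into classes of 50 bp, and the profile of centres was folded at the middle of the gap and smoothed over 31 bp. Folding makes the sides mirror images, so a maximum away from the middle appears on both sides and is counted on each. The counts describe the mean profile and are not numbers of nucleosomes in single members. Inside the gap 2 maxima were found in each class of members 351 to 550 bp wide, 3 in each class of 551 to 700 bp, 4 in each class of 701 to 850 bp and 5 in each class of 851 to 1000 bp. In every class the first maximum stood 104 to 122 bp inside the edge. In members of 401 to 450 bp the 2 maxima lay 192 bp apart at 30.8 centres per kb, with 11.3 per kb at the middle of the gap. In members of 551 to 600 bp the middle held a maximum of its own, at 19.9 per kb, and the mean distance between maxima was 180 bp. In members of 801 to 850 bp the mean distance was 200 bp and the mean level at the maxima was 21.2 per kb, against a lowest level of 10.2 per kb inside the gap. The narrowest members, 301 to 350 bp wide, had no such separation. Their 2 maxima were 96 bp apart, nearer than the protected length of 148 bp, with 25.2 per kb at the maxima and 23.2 per kb between them. Some maxima of wider members were also nearer to one another than that, at 128 bp in the class of 701 to 750 bp and at 112 bp in that of 851 to 900 bp. In members of 501 to 550 bp the 2 maxima were 316 bp apart, with 16.2 per kb in the middle. Over the classes from 351 bp up, the mean distance between maxima ran from 166 to 316 bp, with 230 bp at 451 to 500 bp and 232 bp at 651 to 700 bp. As the first maximum kept its place near the edge, this mean depends on the width and the number of maxima. It is therefore no measure of nucleosome spacing inside the gaps.

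**Figure D4:**
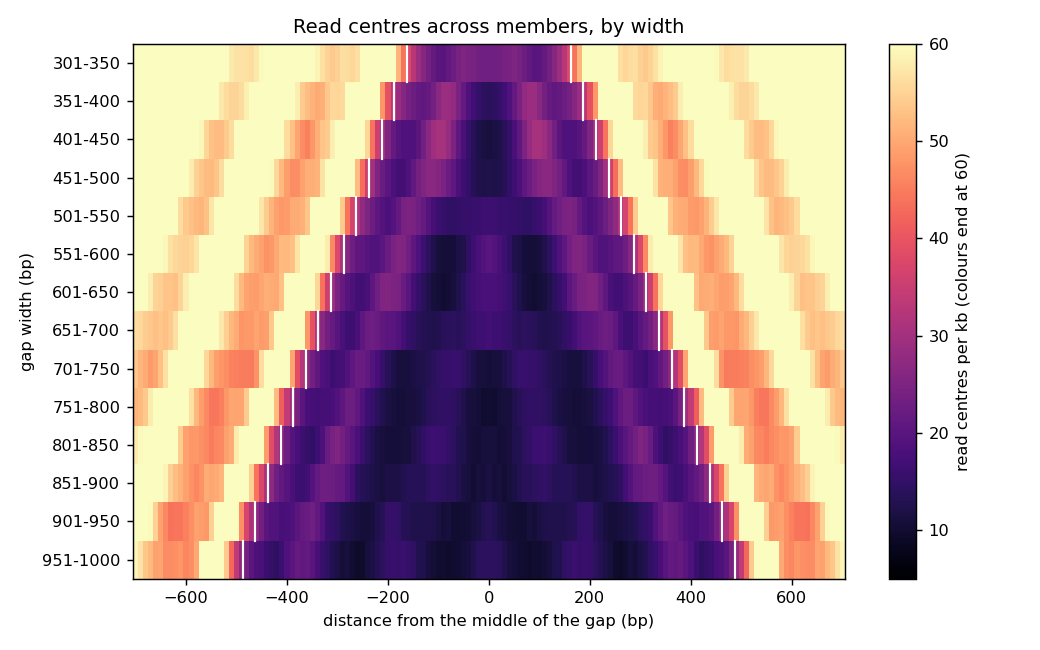
Density of read centres (colour, per kb, capped at 60) against the distance from the middle of the gap in bp, for members in classes of 50 bp of width, folded at the middle. White lines mark the edges of the gap in each class. Bands inside the gap run parallel to the edges. The number of maxima, counted over both mirrored sides, grows from 2 in members of 351 to 550 bp to 5 in those of 851 to 1000 bp.

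Outside the members, the mean profile of read centres rose and fell in a wave on both sides. Whether single members stood between regular arrays was not tested. The call next to the first call beside a member lay 141 to 220 bp further out in 27.0% of cases, against 13.2% for all calls. The single-end library had no part in calling the gaps, but its reads inside them chose which gaps were members. Its read centres had maxima at 61, 228, 416 and 583 bp outward from the edge of a member. The first is the middle of the edge call itself. The levels at these maxima were 112, 84.5, 74.3 and 71.3 centres per kb, and at the minima between them, at 148, 308 and 496 bp, they were 47.3, 53.0 and 60.1 per kb. About 1 kb out the level was 71.7 per kb. The wave therefore died away over about 3 to 4 nucleosomes. The height of the second maximum above the next minimum, as a share of the mean level, is called the swing. It was 47.2% at the second nucleosome, 21.2% at the third and 8.61% at the fourth.

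The swing beside members was greater than around calls in general. The rule chose members by the distance between calls, and calls beside them overlapped less often. The first call beside a member overlapped the next call out in 52.2% of cases, against 76.8% of all calls. How much of the greater swing comes from that choice was not tested. At the second nucleosome it was 47.2% beside members, against 36.9% beside narrower gaps of 150 to 300 bp with at least 3 distinct reads (37759 of 66500), 30.5% beside read-poor wide gaps and 18.5% beside all calls. On single chromosomes it lay between 44.1% and 53.2% beside members (SD 2.70, n = 12) and between 18.0% and 18.8% beside all calls (SD 0.234). It was greater beside members than beside all calls, narrower gaps and read-poor gaps on 12 of 12 chromosomes. At the third nucleosome it was greater beside members than beside all calls on 12 chromosomes, than beside narrower gaps on 11 and than beside read-poor gaps on 9. Members and read-poor gaps were divided by reads of this same library. About 1 kb out the level was 71.7 centres per kb beside members and 42.1 beside read-poor gaps. The part of read depth in their difference in swing was not tested. The left side of members had a swing of 46.6% and the right side of 47.9%, which differed by less than the spread over chromosomes. The distance between the second and the third maximum was 188 bp (SD 7.61 over chromosomes, 174 to 199 bp), against 193 bp beside read-poor gaps.

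The swing was smaller where the edge calls had lower scores. Without members that had an edge call among the 10% of calls with the highest scores, the swing was 36.8%. Without those calls, the swing beside all calls was 14.3%. A difference between members and all calls remained after the 10% of calls with the highest scores were left out. Members were left out by either edge call, whereas in the set of all calls each call was left out by its own score. The filter was chosen after seeing the data. Narrower gaps and read-poor gaps were not filtered in this way, so the part of the score in their comparison with members was not tested.

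**Figure D5:**
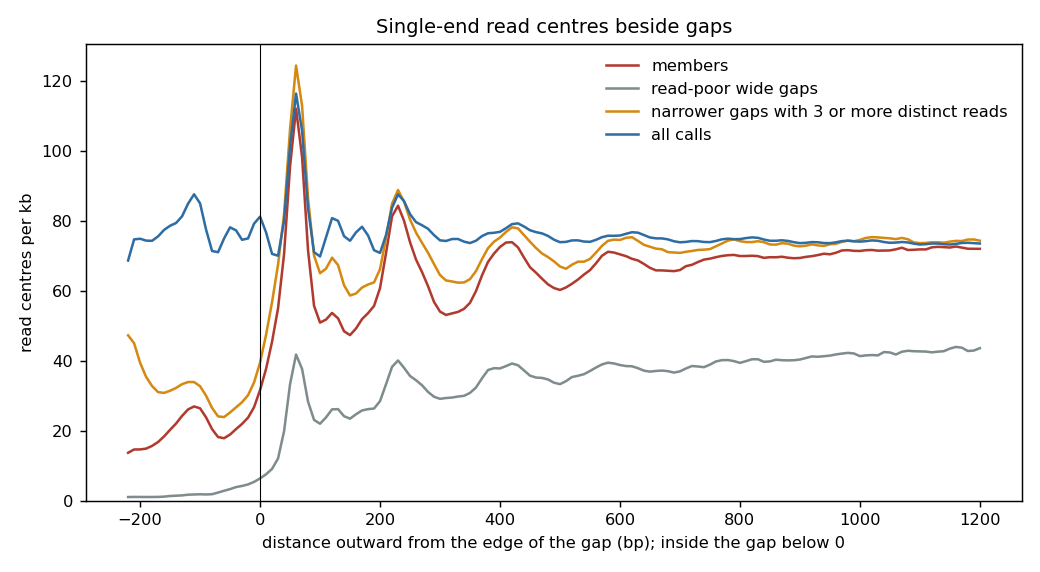
Density of single-end read centres per kb against the distance outward from the edge of the gap in bp (values under 0 lie inside the gap), beside members, read-poor wide gaps, narrower gaps with at least 3 distinct reads, and all calls. Members show maxima at 61, 228, 416 and 583 bp that fade with distance, and a small maximum at 109 bp inside the gap.

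The calls at the edges of members had a slightly lower median score than all calls, but somewhat more of them had the highest scores. The score is the value that nucleR gave each call. Its median was 0.452 at the edges of members, 0.420 at the edges of read-poor gaps and 0.469 over all calls. On chromosome 2 (0.468 against 0.456) and chromosome 9 (0.480 against 0.448) the median of members was instead above that of all calls. These scores come from the library that chose the gaps. Both edge calls were among the 10% with the highest scores, at 0.700 or more, in 745 members (2.32%), against 1.36% of all neighbouring pairs of calls, and exactly 1 was in 6394 members (20.0%), against 17.3%. Across members the scores of the left and right edge call were nearly unrelated (Spearman's rho 0.08, a description over 32047 gaps of 1 library).

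Calls were more separate near the members than elsewhere. The first call beside a member overlapped the next one out in 52.2% of cases and the fifth in 69.0%, against 76.8% of all calls. The median distance to the next call out was 115 bp for the first call and 90 bp for the fifth, against 82 bp for all calls. Calls beside read-poor gaps were alike in this, with 52.5% overlap at the first call.

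The 5 members between the strongest pairs of calls held 3 to 15 reads each, while the median of all members was 8. The member whose weaker edge call scored highest was at chr4:3206944-3207522 (579 bp), with scores of 0.907 on the left and 0.929 on the right, and it held 4 reads. The next were at chr5:8401563-8401931 (369 bp, 3 reads), chr5:22105723-22106151 (429 bp, 15 reads), chr4:31050531-31050892 (362 bp, 11 reads) and chr8:17916649-17917005 (357 bp, 4 reads). None of these 5 held a pair within 4 bp of 148 bp. The kb on each side held between 11.5 and 132 5' ends per kb, so strong edge scores occurred in places of low as well as of high read density.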

How the data were processed

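The authors used MAQ to place 36-bp reads on TIGR release 5 with up to 1 mismatch, and only uniquely placed reads were kept. The version of MAQ and any filter on repeated reads are not given in the sources used here. The authors called nucleosomes from read pairs with nucleR from the middle 40 bp of fragments no longer than 200 bp, and deposited a score for each call whose scale and threshold are not stated. A second list of calls was identical and was not used.

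The centre of a call was taken 60 bp after its start. A read counted as inside only when whole, and its centre was placed 73 bp inside its 5' end. Profiles were smoothed over 21 bp, and maxima inside gaps needed a prominence of 10% and a distance of 80 bp. The swing was divided by the mean level at 120 to 1120 bp. The tools were matplotlib 3.10.9, numba 0.67.0, scipy 1.17.1, pandas 2.3.3, numpy 2.4.6 and Python 3.11.15, and the counting was tested on simulated data. At 71.3 reads per kb single gaps carry few reads, and the interval given covers counting error only, as PCR copies of a molecule carry no mark.

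The members and the comparisons were chosen with earlier results of these data known. Named are the 5 members with most distinct reads, the 5 widest, the 5 with most pairs within 4 bp of the protected length and the 5 with the highest weaker edge score. Ties went to more distinct reads, then to the lower chromosome and position. Alternatives covered the read minimum, the treatment of repeated reads, the limits of the gap and the reference lengths of pairs. Sequences and gene annotation of this build were not used here.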

Additional observations from a re-analysis of the deposited data

How the results depend on the processing

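Of 46 alternatives over 7 results, 29 stayed within 1 SD over chromosomes of the reported value (for counts, within 1.5 times). 4 of the 46 were chosen after seeing the data. A minimum of 10 distinct reads left 12014 members with a median width of 513 bp, 32.3 per Mb and 30.7 reads per kb, and a minimum of 5 gave 471 bp, 66.9 per Mb and 23.2 reads per kb. When only calls in the upper part of the scores, above their median, ended a gap there were 138776 members. With reads counted as inside by their 5' end the median width was 456 bp. Reads counted once gave 18.1 reads per kb, a pair ratio of 3.22 and a swing of 40.6%. The density was 21.4 per kb of places for a whole read and 20.6 in members with ends on both sides of the midpoint, a set chosen after seeing the data. Pairs compared with 170 to 250 bp gave a ratio of 2.59. Centres 65 bp inside gave a swing of 40.8%, and members with no edge call in the highest 10%, also chosen after seeing the data, gave 36.8%. Leaving out each chromosome in turn moved the swing between 46.8 and 47.5%. The cause was not tested beyond what each setting itself changes. No replicate could be left out, as each form had 1 biological replicate. No paired analysis was possible because replicate 1 and replicate 2 carry different numbers and different kinds of data. Depth limits single members, most of which held fewer than 10 distinct reads.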

Other observations

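Read-poor wide gaps had an excess of one width that members lacked. Members numbered 550 at widths over 700 and up to 720 bp, 497 over 740 and up to 760 bp and 392 over 780 and up to 800 bp. Read-poor gaps numbered 243, 590 and 170 at the same widths. Those of the middle width were spread over the genome, with 25 to 70 on each chromosome.

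Gaps wider than 1000 bp numbered 4427. At least 3 distinct reads fell inside 2689 of them (60.7%), which held 10.5 reads per kb and had a median width of 1225 bp.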
